A study of Mus musculus with 9 samples.

Results

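Interferon response and MHC class I genes were followed in eosinophils from the muscle of mice with and without dystrophin deficiency and an interleukin-5 transgene. The set holds 52 genes, taken by symbol from a written list out of 54146 genes in the deposited count table. All 52 were found once and all 52 passed the filter on low counts, as did 15886 genes in all. They comprise 4 transcription factors of the response (Irf1, Irf7, Irf9, Stat2), 3 cytoplasmic RNA sensors (Ifih1, Ddx58, Dhx58), 24 antiviral effectors, 7 enzymes of ISG15, ubiquitin and ADP-ribose transfer, 7 interferon-inducible GTPases and 7 genes of MHC class I presentation. Cells were sorted from quadriceps infiltrates as live CD45+ Siglec-F+ cells lacking CD11c, Gr1 and MHC class II, per the labels. There were 3 libraries in each of 3 groups of adult mice: IL5Tg, which carries the interleukin-5 transgene; mdx, the dystrophin-deficient model of Duchenne muscular dystrophy; and mdx_IL5Tg, which has both. No group lacks both. Titles were used for grouping, since the label for strain gives mdx throughout, also for IL5Tg. The promoter that drives the transgene, the genetic background and exact ages are not known from the labels. The design text calls the replicates biological; whether each came from 1 animal or a pool is not stated, so p-values measure the spread between these samples.

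Type I interferons are secreted when cells detect foreign or displaced nucleic acid. They act through the receptor of Ifnar1 and Ifnar2 and a factor containing Stat2 and Irf9 that binds interferon-stimulated response elements. Interferon gamma acts through Ifngr1 and Ifngr2, and its signal reaches gamma-activated sites. The induced genes restrict viral replication, while class I molecules carry peptides cut by the immunoproteasome, moved by the Tap transporter and held with beta-2 microglobulin to the cell surface. Eosinophils are granulocytes of type 2 inflammation that depend on interleukin-5 and accumulate in dystrophic muscle.

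Promoter sequences are shown to describe where the core letters of the interferon-stimulated response element occur in these genes. RefSeq (GRCm38.p6) promoters, from 250 bases before to 50 after the start, were matched for 41 of the 52 genes. The motif GAAANNGAA, the core of that element searched on both strands, was found in 23 of the 41 genes (56.1%), beside 9.76% of all 27025 genes with a promoter in the table. TTCNNNGAA, the core of the gamma-activated site, is its own reverse complement and was found in 12 of 41 (29.3%), beside 9.55% of all genes. Among the matched genes the first motif was in 13 of 18 called higher in mdx than in mdx_IL5Tg, described below, and in 9 of 22 that did not pass. TTCNNNGAA was in 4 of the 18 and 8 of the 22. Some genes have several promoters in the table, and a match is a description of the letters and not a measured site. The 52 were listed as interferon response and class I genes, so their shares beside all genes do not bear on the groups. The 6 stretches below, 60 bases each and written 5′ to 3′ on the gene's strand, lie at chr7:104465195-104465254 (minus strand), chr11:88999343-88999402 (plus), chr2:62646334-62646393 (minus), chr3:142559980-142560039 (plus), chr12:26456538-26456597 (minus) and chr5:120907526-120907585 (minus). Capitals mark matches to GAAANNGAA or, where it lies on the opposite strand, to its reverse complement; Gbp3 and Oas1a each have a pair of overlapping matches.
Trim30a: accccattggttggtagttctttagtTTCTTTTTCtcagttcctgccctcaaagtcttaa
Trim25: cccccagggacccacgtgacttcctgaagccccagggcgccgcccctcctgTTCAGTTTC
Ifih1: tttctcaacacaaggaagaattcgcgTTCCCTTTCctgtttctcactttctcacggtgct
Gbp3: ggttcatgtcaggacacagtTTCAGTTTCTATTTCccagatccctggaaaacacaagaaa
Rsad2: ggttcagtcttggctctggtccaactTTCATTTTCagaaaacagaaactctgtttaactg
Oas1a: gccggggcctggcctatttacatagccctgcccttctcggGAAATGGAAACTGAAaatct
The nearest match ends 26 bases before the start of Trim30a, 0 before that of Trim25, 103 before Ifih1, 29 before Gbp3, 110 before Rsad2 and 5 before Oas1a. The 6 were the called genes with the smallest p in mdx against mdx_IL5Tg that had a match before the start. Their calls and matches were thus set by the choice. Oasl1, Herc6 and Ifit2, called higher and ranked among them by p, had no match. Trim30a, Ifih1, Gbp3, Rsad2 and Oas1a were called higher in mdx than in mdx_IL5Tg. Trim25, the only gene of the 52 called lower there, also had a match.

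Total counts ranged from 26752780 to 58368283 per library. Levels are given in CPM, counts scaled for library depth and by TMM (trimmed mean of M-values). They are listed by library in the order S7, S8 and S9 for IL5Tg, S1, S2 and S3 for mdx_IL5Tg, and S4, S5 and S6 for mdx. The transgene label was checked by Il5, at 317 to 724 CPM in the 6 transgenic libraries and 0.265 to 0.402 CPM in mdx. Dmd, the dystrophin gene, was at 5.29 to 6.62 CPM in IL5Tg, 1.64 to 2.74 in mdx_IL5Tg and 2.74 to 6.93 in mdx. The mdx allele is a point mutation, so a gene's total count does not check the dystrophin label. Ccr3, the eotaxin receptor that defines eosinophils, was at 809 to 1441 CPM in every library. The 11 eosinophil markers summed to 5712 to 15820 CPM in IL5Tg, 5175 to 5636 in mdx_IL5Tg and 2177 to 2959 in mdx. Prg2, a granule protein gene and the largest term in IL5Tg, had means of 3766, 618 and 226 CPM in that order. In IL5Tg it was at 6997 CPM in S7 and at 1611 and 2690 in S8 and S9. Ccr3 (968, 1372 and 1017), Il5ra (60.2, 58.1 and 61.1) and Gata1 (39.6, 59.4 and 40.4) were not lower in mdx than in IL5Tg. In mdx against IL5Tg 6 of the 11 were called lower and 0 higher. Siglecf, the gate's own marker, was at 329.9 to 394, 449 to 584 and 129 to 177 CPM in the same order. Some libraries stood apart: IL5Tg S7 had the highest level of the proliferation gene Mki67 (202 CPM, 44.3 and 87.8 in its group), and mdx S5 had 0.383% mitochondrial counts where the other 8 libraries had 1.28% to 2.29%. In mdx_IL5Tg S3 the macrophage gene C1qb was at 2.38 CPM, below 11.2 and 15.5 in S1 and S2. Each log2 change below is followed by its standard error, and a call is an edgeR adjusted p under 0.05. In bulk samples a smaller share of a cell type, less RNA per cell and lower expression of the marker genes themselves cannot be told apart.

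By level per length (CPM per kilobase of exon, mean of all 9 libraries), H2-D1, B2m and H2-K1 led the set at 749.7, 735 and 280.2, and Mx1 was lowest at 0.172. Mean levels were highest in mdx for 43 of the 52 genes, in mdx_IL5Tg for 6 and in IL5Tg for 3. Among the 43, mdx_IL5Tg was lowest for 26 and IL5Tg for 17. After each gene's log2(CPM + 1) was centred on its mean over the 9 libraries, the median of the 52 was 0.20, -0.39 and -0.25 in IL5Tg, -0.21, -0.01 and -0.54 in mdx_IL5Tg, and 0.56, 0.34 and 0.34 in mdx. The 3 mdx libraries were thus the highest, and IL5Tg S7 was the highest of the other 6. Single libraries carried many of the extremes: 23 genes had their lowest level in mdx_IL5Tg S3 and 16 in IL5Tg S8, while 25 had their highest in mdx S4 and 16 in mdx S5. Extremes by library were not counted over all genes either.

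**Figure D1:**
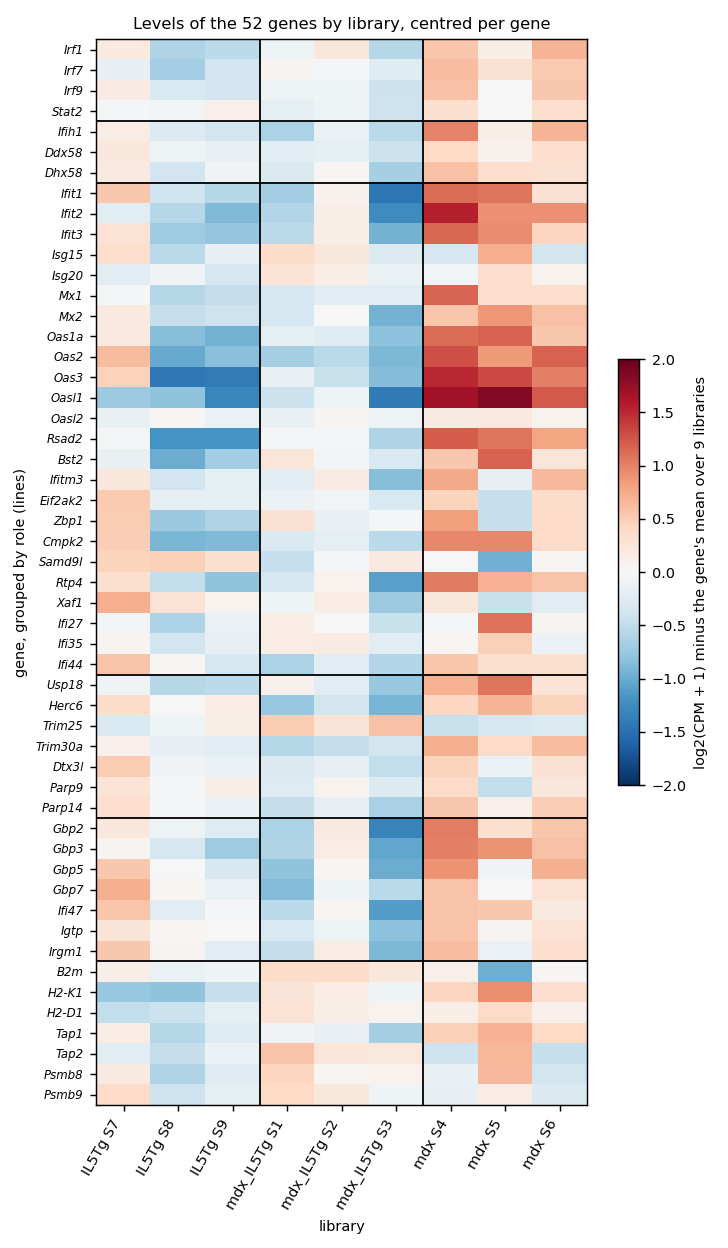
Heat map of log2(CPM + 1) minus each gene's mean over 9 libraries, with the 52 genes as lines grouped by role and the libraries as columns grouped by genotype. The mdx columns S4 to S6 are mostly red, S8 of IL5Tg and S3 of mdx_IL5Tg are mostly blue, and in the class I block at the foot B2m is lowest in mdx S5. Red is above and blue below a gene's mean.

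The comparison of mdx with mdx_IL5Tg asks how muscle eosinophils of dystrophin-deficient mice differ without and with the interleukin-5 transgene. Antiviral effectors, sensors and GTPases were mostly higher in mdx: Oasl1 was 5.23 times, Ifit2 3.43 times, Herc6 2.70 times and Trim30a 2.13 times the mdx_IL5Tg level. Of the 52 genes, 24 (46.2%) were called higher and 1, Trim25, lower (edgeR, adjusted p under 0.05 over all genes tested). Over all 15886 genes, 11.5% were called higher and 10.1% lower. The median log2 change of the 52 was 0.78, beside 0.13 over all genes, and 45 of 52 were above 0, as were 57.6% of all genes. All 3 mdx libraries lay above all 3 mdx_IL5Tg libraries for 33 genes (23.2% of all genes did so) and below them for 2 (share of all genes not counted). The genes called higher were Trim30a, Oasl1, Herc6, Ifit2, Parp14, Ifih1, Oas2, Gbp3, Rsad2, Oas1a, Tap1, Mx2, Ddx58, Ifi44, Oas3, Ifit1, Irf7, Usp18, Gbp2, Ifit3, Mx1, Rtp4, Igtp and Gbp5. Of these, Mx1 passed the filter only through mdx, the group where it was high.

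Fewer of the 52 were called higher whichever library was left out, and over all genes the share also fell except without mdx S5 (12.3%). Of the 52, those called higher numbered 3 without mdx_IL5Tg S1 (2.63% of all genes tested), 5 without mdx S4 (3.73%), 6 without mdx_IL5Tg S3 (5.8%) and 12 without mdx S6 (5.61%). They numbered 15 without IL5Tg S9 (7.1%), a library of neither group compared, and 30 when IL5Tg S7 and mdx S5 were both left out (13.1%). The median log2 change of the 52 was 0.50 to 0.86 over the 9 fits that left out 1 library. Herc6, Oasl1, Trim25 and Trim30a kept their calls in all 19 alternatives; the other 21 lost theirs in at least 1, with a highest edgeR adjusted p between 0.0582 and 0.203. The direction of each called gene was the same in every alternative in which it was tested. Of all genes called, 53.31% were higher in mdx with TMM and 84.3% with library totals alone. Scaling by library totals moved the median of all genes to 0.46 and that of the 52 to 1.09, and 38 of the 52 were then called higher (25.2% of all genes). The distance of the medians was 0.64 beside 0.65 with TMM. Scaling shifts all genes by nearly the same amount, so this distance could hardly change and is no check.

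The comparison of mdx_IL5Tg with IL5Tg asks what dystrophin deficiency adds in mice that carry the transgene. Only H2-K1, a class I heavy chain, was called higher, at 1.71 times the IL5Tg level, and only Herc6 was called lower, with a log2 change of -1.04. That is 1 of 52 genes in each direction, beside 4.35% higher and 2.87% lower over all genes. At an unadjusted edgeR p under 0.05, 4 were higher and 6 lower. The share of all genes was not counted, so neither count sets the 52 apart. The median log2 change was -0.08, with -0.05 over all genes, and 23 of 52 were above 0, as were 46.4% of all genes. Values leaned to opposite sides by role: the 7 GTPases were all at or below a log2 change of -0.13 (median -0.54) and 6 of the 7 class I genes were above 0 (median 0.39). These signs were the same with RLE factors and with library totals, which moved the median of all genes to -0.27. The call of H2-K1 ended with library totals, without any 1 of the IL5Tg libraries and without mdx_IL5Tg S1 or S2 (edgeR adjusted p up to 0.158). That of Herc6 ended without any 1 of IL5Tg S7, S8, S9, mdx_IL5Tg S1, S3, mdx S4 or S6 (edgeR adjusted p up to 0.182). Genes called higher numbered 7 and genes called lower 0 when IL5Tg S7 and mdx S5 were both left out (6.8% and 3.74% of all genes), 4 were called higher without mdx S5 (9.4%) and 2 without mdx_IL5Tg S3 (5.62%). The median of the 52 turned to 0.27 without IL5Tg S7, with 33 above 0, and to 0.14 without mdx_IL5Tg S3, with 31 above 0. Of all genes called, 60.24% were higher in mdx_IL5Tg with TMM and 24.07% with library totals.

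Between mdx and IL5Tg both the transgene and dystrophin differ, so their parts cannot be told apart. Here 16 of 52 genes (30.8%) were called higher in mdx and 0 lower, beside 11.8% and 8.96% over all genes. Oasl1 was 7.28 times, Ifit2 3.65 times, Rsad2 3.48 times and H2-K1 2.38 times the IL5Tg level. The others called higher were Irf7, Trim30a, Bst2, Oas1a, H2-D1, Usp18, Gbp3, Mx1, Oas3, Tap1, Ifih1 and Ifit3. Here too Mx1 was tested only through mdx. At an unadjusted p under 0.05 in edgeR, 24 were higher and 1 lower. The share of all genes was not counted, so these counts do not set the 52 apart. DESeq2 called 1 lower, Samd9l, for which edgeR gave -0.66 ± 0.25, edgeR adjusted p = 0.0778. Voom with quality weights called Trim25 lower. The median log2 change was 0.58, with 0.01 over all genes, and 46 of 52 were above 0, as were 50.9% of all genes. H2-K1, Ifit2, Irf7, Oasl1 and Rsad2 kept their calls in all 19 alternatives, and the other 11 lost theirs in at least 1 (highest edgeR adjusted p from 0.0559 to 0.152). Genes called higher numbered 6 without IL5Tg S8 (5.89% of all genes) or S9 (5.71%), 7 without mdx S4 (7.15%) and 25 when IL5Tg S7 and mdx S5 were both left out (9.43%). The median log2 change of the 52 was 0.41 to 0.71 with 1 library left out, and Samd9l was called lower without mdx_IL5Tg S3 or mdx S6. Of all genes called, 56.82% were higher in mdx with TMM and 70.7% with library totals. This comparison shares its libraries with the other comparisons, so the lists of called genes are not independent of each other.

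**Figure D2:**
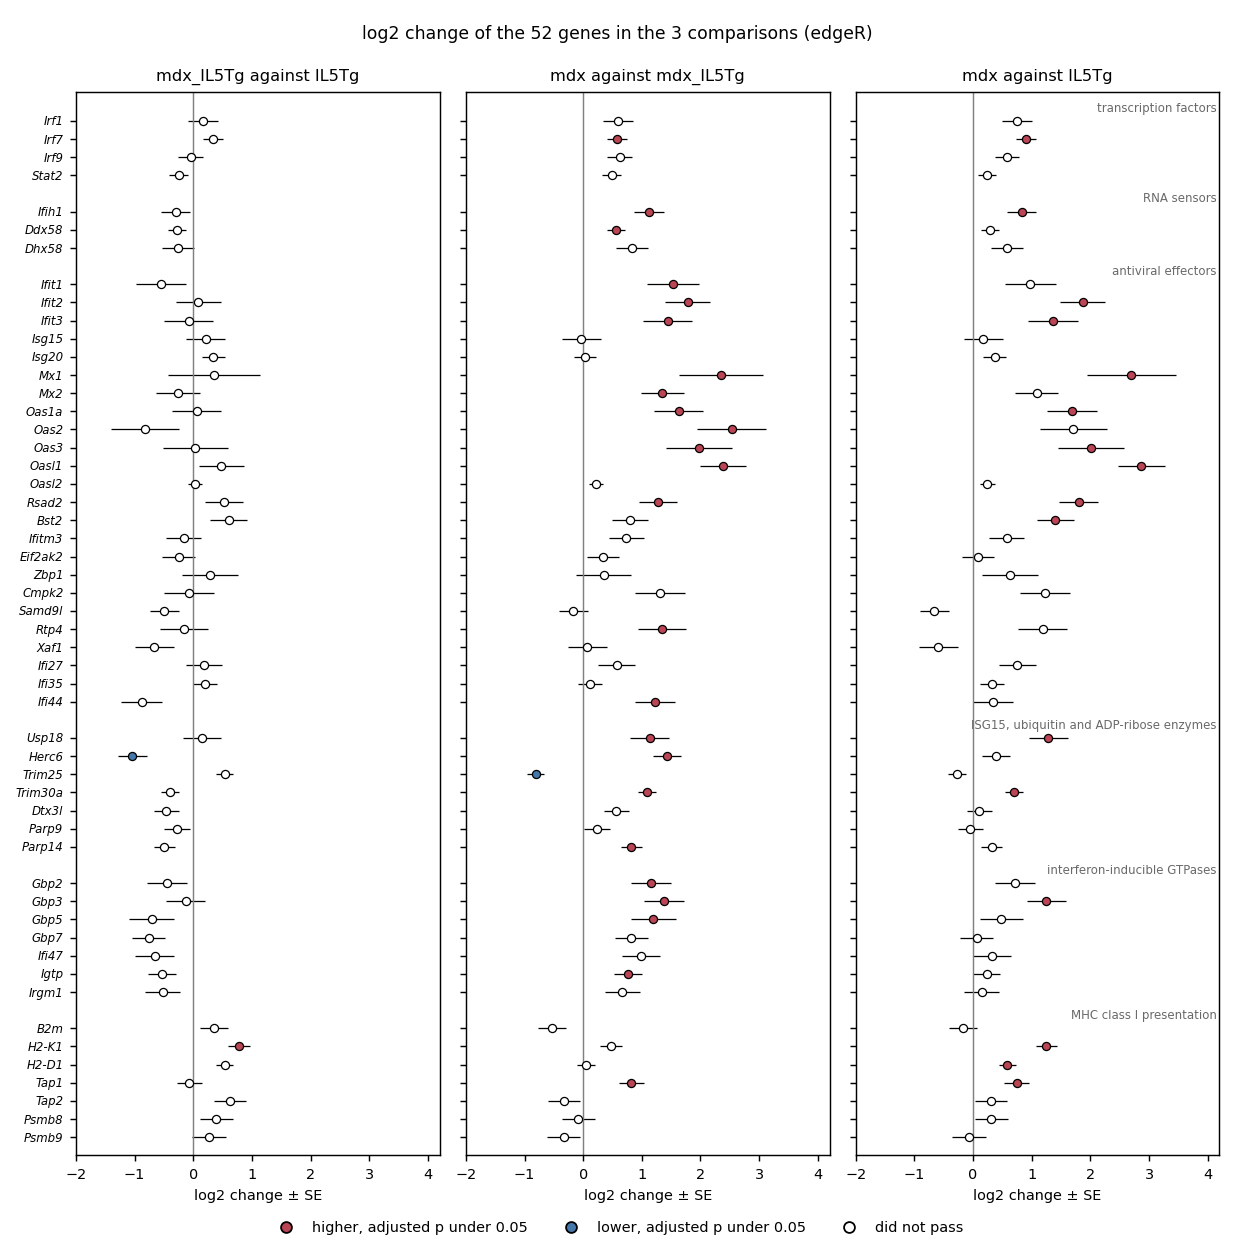
Log2 change with its standard error (edgeR) for each of the 52 genes, grouped by role, in the 3 comparisons; coloured points passed an adjusted p of 0.05, red for higher and blue for lower. In mdx against mdx_IL5Tg 24 points are red and 1, Trim25, is blue, whereas mdx_IL5Tg against IL5Tg has 1 of each colour.

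Markers of other cell types differed between the same groups. In mdx against mdx_IL5Tg, 9 of 12 macrophage markers were called higher and 1 (Adgre1) lower, and 4 of 7 monocyte markers higher. In the same comparison 2 of 7 tested dendritic cell and class II markers were called higher and 1 (Itgax) lower. There 8 of 10 muscle and stromal markers were called higher and 3 of 11 eosinophil markers lower. In mdx against IL5Tg, 10 of 12 macrophage, 5 of 7 monocyte, 5 of 7 dendritic cell and 8 of 10 muscle and stromal markers were higher and 6 of 11 eosinophil markers lower. There 1 monocyte marker (Ly6c2), 2 of 9 neutrophil, 2 of 4 T and NK cell, 1 of 3 B cell and 3 of 10 proliferation markers were also lower, and 1 T cell marker (Cd4) higher. In mdx_IL5Tg against IL5Tg, where the 52 genes gave 1 call in each direction, 5 of 12 macrophage, 5 of 7 dendritic cell and 4 of 10 muscle and stromal markers were called higher. In that comparison 5 of 10 proliferation markers and Ly6c2 were called lower, 1 neutrophil marker (Cxcr2) higher and 0 of 11 eosinophil markers either way. C1qb, which encodes a chain of complement C1q, stood at 1.12, 0.422 and 1.53 CPM in IL5Tg, 11.2, 15.5 and 2.38 in mdx_IL5Tg, and 63.2, 43.1 and 29.4 in mdx. Cd74, the class II invariant chain, was at 8.93, 4.61 and 5.59 CPM in IL5Tg, 40.8, 61.6 and 15.2 in mdx_IL5Tg, and 113, 103 and 80.8 in mdx. Both were lowest in IL5Tg and highest in mdx, and within mdx_IL5Tg both were lowest in S3, the library with the lowest level of 23 of the 52 genes. Summed macrophage markers ranged from 1678 to 1996 CPM in IL5Tg, 2637 to 2816 in mdx_IL5Tg and 1994 to 2879 in mdx, and the largest term in every library was Adgre1 (1082 to 2439), which eosinophils also express. Summed monocyte markers ranged from 131 to 361, 74.5 to 203 and 292 to 718 CPM in the same order. Dendritic cell and class II markers, with Itgax (CD11c) the largest term except in mdx S5, ranged from 62.8 to 68.04, 221 to 382 and 294 to 383 CPM. Muscle and stromal markers, led by the collagen gene Col1a1, ranged from 854 to 1649, 683 to 2342 and 3424 to 7868. Summed neutrophil markers ranged from 420.3 to 1335, 115 to 167 and 11.2 to 335, and proliferation markers from 199 to 595, 151 to 179.6 and 136 to 185. B cell markers ranged from 17.9 to 35.6, 16.1 to 18.9 and 11.4 to 15.4, and T and NK cell markers from 3.96 to 9.28, 2.51 to 2.64 and 2.38 to 3.87. In mdx against mdx_IL5Tg 1 of 9 neutrophil and 1 of 4 tested T and NK cell markers were called lower and 1 of 10 proliferation markers higher. Ncr1, an NK cell receptor gene, had 0 counts in IL5Tg and mdx_IL5Tg and Ccr9 in mdx_IL5Tg; in the dendritic cell list Xcr1, Clec9a, Siglech and Flt3 stayed at or under 0.54 CPM in every library. The part of other cells, of the eosinophil markers and of the mitochondrial share in the changes of the 52 genes was not tested.

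**Figure D3:**
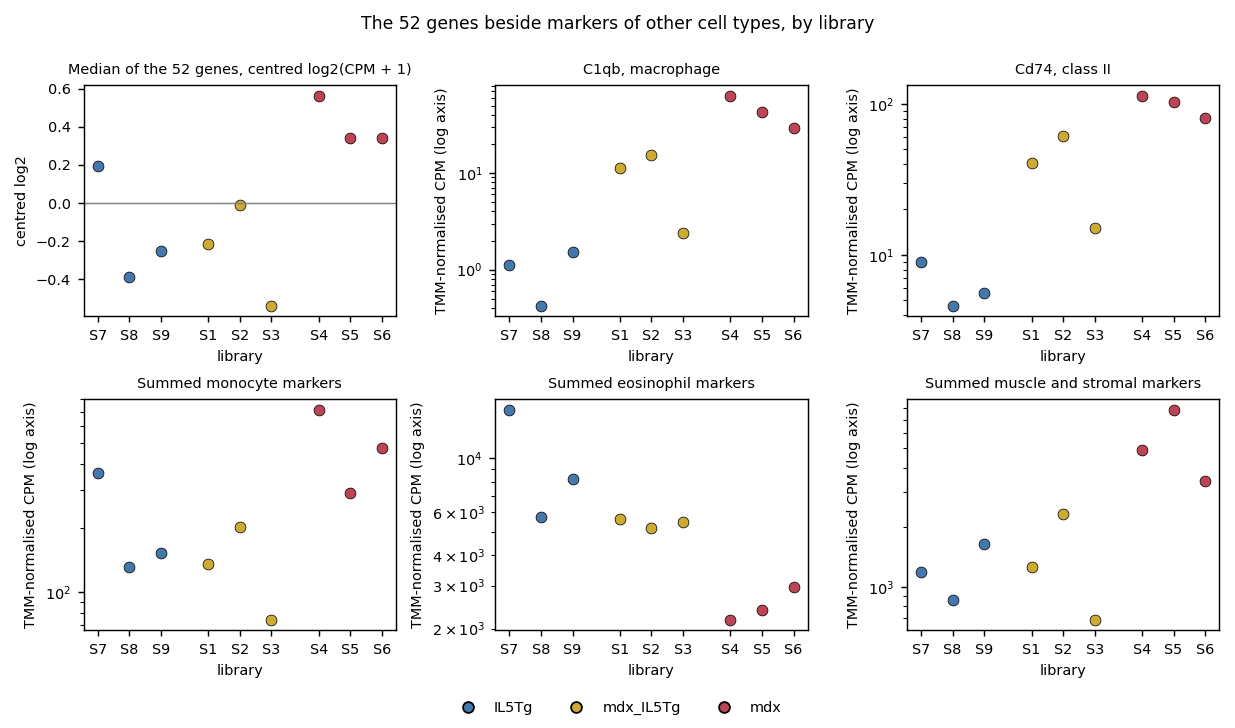
Median centred log2(CPM + 1) of the 52 genes by library, beside C1qb, Cd74 and the summed monocyte, eosinophil and muscle and stromal markers (CPM, log axes). The 3 mdx libraries have the highest medians (0.34 to 0.56), the highest C1qb (29.4 to 63.2) and the lowest summed eosinophil markers (2177 to 2959). Summed macrophage markers, not drawn, overlapped between mdx (1994 to 2879) and mdx_IL5Tg (2637 to 2816). Adgre1 and Itgax were lower in mdx than in mdx_IL5Tg. The eosinophil sum includes Prg2, at 1611 to 6997 in IL5Tg, with S7 the highest, and at 79.3 to 503 in mdx.

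Among the transcription factors, Irf7, the factor that amplifies type I interferon production, was at 28.5, 19.7 and 24.3 CPM in IL5Tg, 33.2, 31.3 and 26.8 in mdx_IL5Tg, and 49.7, 39.6 and 46.6 in mdx. Each mdx library was above all 6 transgenic ones. The log2 change was 0.57 ± 0.17, edgeR adjusted p = 0.0324 against mdx_IL5Tg, 0.91 ± 0.17, edgeR adjusted p = 0.00413 against IL5Tg, and 0.33 ± 0.17, edgeR adjusted p = 0.220 for mdx_IL5Tg against IL5Tg. The mdx against mdx_IL5Tg call ended without IL5Tg S9, or mdx_IL5Tg S1, S2 or S3, or mdx S4 or S6, and in a fit of only the groups compared (edgeR adjusted p up to 0.172). Stat2, the partner of Irf9, was at 19, 18.6 and 20.9 CPM in IL5Tg, 16.8, 18.1 and 14.4 in mdx_IL5Tg, and 24.5, 19.5 and 25 in mdx. Its groups lay close together, and mdx exceeded mdx_IL5Tg without overlap but not past the threshold (0.48 ± 0.16, edgeR adjusted p = 0.0521). Against IL5Tg it was at 0.24 ± 0.16 in mdx and -0.25 ± 0.16 in mdx_IL5Tg, neither past the threshold. Irf9 had means of 23 ± 5.03 CPM (IL5Tg), 22.3 ± 3.07 (mdx_IL5Tg) and 34.3 ± 7.35 (mdx), each ± SD with n = 3 as for every later mean. Irf1, an early target of interferon gamma, was at 47.6 ± 15.8 CPM (IL5Tg), 53.2 ± 14.6 (mdx_IL5Tg) and 79.9 ± 15 (mdx). In mdx against mdx_IL5Tg Irf9 and Irf1 were at 0.62 ± 0.21 and 0.59 ± 0.26 and neither passed.

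The RNA sensors recognise viral RNA in the cytoplasm and signal for interferon. Ifih1, which encodes the long double-stranded RNA sensor MDA5, was at 17.4, 12.8 and 11.9 CPM in IL5Tg, 9.70, 14.1 and 10.4 in mdx_IL5Tg, and 32, 17.1 and 25.6 in mdx. The mdx libraries were the highest except that S5 was just below IL5Tg S7. Ifih1 was called higher in mdx against mdx_IL5Tg (1.13 ± 0.25, edgeR adjusted p = 0.0117) and against IL5Tg (0.83 ± 0.25, edgeR adjusted p = 0.0404). The first call was lost without mdx_IL5Tg S1, or mdx S4 (adjusted p up to 0.0725) and the second without IL5Tg S8 or S9, or mdx_IL5Tg S1, or mdx S4 or S6 (up to 0.147). Ddx58, which encodes RIG-I, was called higher against mdx_IL5Tg alone, at 0.56 ± 0.15 with edgeR adjusted p = 0.0261 and means of 38.3 ± 5.69 CPM (IL5Tg), 31.7 ± 3.004 (mdx_IL5Tg) and 46.6 ± 5.49 (mdx). This call ended without IL5Tg S8 or S9, or mdx_IL5Tg S1, S2 or S3, or mdx S4 or S6, and in a fit of only the groups compared (adjusted p up to 0.154). Dhx58, the regulator LGP2, was at 0.83 ± 0.27, edgeR adjusted p = 0.0501 in the same comparison, which lies just outside the threshold. In mdx_IL5Tg against IL5Tg the 3 sensors were between -0.30 and -0.26 and none passed.

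Of the antiviral effectors, 12 of 24 were called higher in mdx than in mdx_IL5Tg (median log2 change 1.25) and 8 of 24 in mdx than in IL5Tg (median 1.03). The shares were 50% and 33.3%, beside 11.5% and 11.8% of all genes. The IFIT proteins bind foreign RNA and block its translation, and their genes lie side by side on chromosome 19. Ifit2 (chr19:34550694-34576419, GRCm38) was at 6.88, 5.16 and 3.99 CPM in IL5Tg, 5.14, 9.09 and 2.82 in mdx_IL5Tg, and 25.9, 16.4 and 16.3 in mdx. All 3 mdx values exceeded the 6 others, of which mdx_IL5Tg S2 was highest and S3 lowest. The log2 change of Ifit2 was 1.78 ± 0.39, edgeR adjusted p = 0.0101 against mdx_IL5Tg and 1.87 ± 0.39, edgeR adjusted p = 0.00810 against IL5Tg, and 0.09 ± 0.38 between the transgenic groups. The first call ended without mdx_IL5Tg S1 (edgeR adjusted p = 0.0582). Ifit3 (chr19:34583531-34588731) was at 7.14, 3.05 and 2.87 CPM in IL5Tg, 3.63, 6.29 and 2.45 in mdx_IL5Tg, and 13.7, 11.8 and 7.98 in mdx. Here IL5Tg S7 came close to the lowest mdx library. Ifit3 was called in mdx against mdx_IL5Tg (1.44 ± 0.42, edgeR adjusted p = 0.0343) and against IL5Tg (1.36 ± 0.42, edgeR adjusted p = 0.0435), was at -0.08 ± 0.42 in mdx_IL5Tg against IL5Tg, and may share reads with its near copy Ifit3b. The first call ended without mdx_IL5Tg S1 or S3, or mdx S4 or S5, and the second without IL5Tg S8 or S9, mdx_IL5Tg S1, or mdx S4 or S5 (edgeR adjusted p up to 0.141 and 0.152). Ifit1 was at 12.8 ± 6.18 CPM (IL5Tg), 8.77 ± 5.02 (mdx_IL5Tg) and 25.3 ± 7.49 (mdx). It was called against mdx_IL5Tg (1.53 ± 0.44, edgeR adjusted p = 0.0318) but not against IL5Tg (0.98 ± 0.43). The call ended without mdx_IL5Tg S1 or S3, or mdx S4 or S5, and with no filter, in a fit of only the groups compared or with IL5Tg S7 and mdx S5 both left out (adjusted p up to 0.130).

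The OAS enzymes make the second messenger that activates RNase L, and the OASL proteins are their catalytically diverged relatives. Oasl1, known in the mouse for limiting translation of Irf7, was at 3.68, 3.44 and 2.12 CPM in IL5Tg, 4.74, 6.24 and 1.91 in mdx_IL5Tg, and 23.8, 26.6 and 17.1 in mdx. The lowest mdx library was above the highest transgenic one by more than the whole spread of the 6 transgenic values. Its log2 change was 2.39 ± 0.39, edgeR adjusted p = 0.00253 against mdx_IL5Tg and 2.86 ± 0.40, edgeR adjusted p = 0.000918 against IL5Tg, with 0.48 ± 0.38 between the transgenic groups, and both calls held in all alternatives. Oas1a was at 4.96, 1.88 and 1.71 CPM in IL5Tg, 3.56, 3.40 and 1.96 in mdx_IL5Tg, and 10.3, 10.7 and 6.56 in mdx. IL5Tg S7 was again the highest of its group, and mdx was called higher than mdx_IL5Tg (1.63 ± 0.41, edgeR adjusted p = 0.0196) and IL5Tg (1.69 ± 0.42, edgeR adjusted p = 0.0177). The first call ended without mdx_IL5Tg S1 or S3, or mdx S4 and the second without IL5Tg S8 or S9, or mdx S4 (adjusted p up to 0.0694 and 0.0741). Oas2 was at 4.26, 0.681 and 0.895 CPM in IL5Tg, 1.15, 1.33 and 0.809 in mdx_IL5Tg, and 7.33, 5.12 and 6.66 in mdx. It was called in mdx against mdx_IL5Tg (2.53 ± 0.59, edgeR adjusted p = 0.0133), a call lost without mdx_IL5Tg S1 (adjusted p = 0.0593). It missed the threshold against IL5Tg (1.71 ± 0.57, edgeR adjusted p = 0.0559), where IL5Tg S7 stood above its pair. Oas3 was called in both comparisons, at 1.98 ± 0.56 and 2.01 ± 0.57 with means of 4.01 ± 4.09 CPM (IL5Tg), 4.12 ± 1.24 (mdx_IL5Tg) and 16.2 ± 3.02 (mdx). It lost the first call without mdx_IL5Tg S1, S2 or S3, or mdx S4, S5 or S6, and with no filter (adjusted p up to 0.152), and the second without IL5Tg S8 or S9, or mdx S4 or S5, and with no filter or in a fit of only the groups compared (up to 0.151). Oasl2 had narrow spreads and no call, at 38.2 ± 2.57 CPM (IL5Tg), 38.9 ± 2.83 (mdx_IL5Tg) and 45.2 ± 2.35 (mdx). Oas1a may share reads with similar copies such as Oas1g, so its values are uncertain.

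Rsad2 encodes viperin, which makes a chain-terminating nucleotide, and stood at 19.9, 8.24 and 8.39 CPM in IL5Tg, 19.9, 19.7 and 13 in mdx_IL5Tg, and 48.3, 43.5 and 35.7 in mdx. Every mdx library was above every other library. The log2 change was 1.28 ± 0.32, edgeR adjusted p = 0.0192 against mdx_IL5Tg and 1.80 ± 0.33, edgeR adjusted p = 0.00401 against IL5Tg. The latter held in all alternatives and the former was lost without mdx_IL5Tg S1 or S3, or mdx S4 (edgeR adjusted p up to 0.0741). Bst2, the tetherin that holds budding virus at the membrane, was at 9.38, 4.77 and 6.04 CPM in IL5Tg, 12.5, 9.97 and 8.22 in mdx_IL5Tg, and 15.6, 25.1 and 12.6 in mdx. The order of its group means was IL5Tg, mdx_IL5Tg, mdx, with mdx S5 the highest, and only mdx against IL5Tg passed (1.40 ± 0.32, edgeR adjusted p = 0.0116), with 0.79 ± 0.31 against mdx_IL5Tg. The Bst2 call ended without IL5Tg S8 or S9 (adjusted p up to 0.0569). Isg15, the ubiquitin-like protein that gives its name to ISGylation, was at 30.5, 15.8 and 20.9 CPM in IL5Tg, 30.8, 27.6 and 19.4 in mdx_IL5Tg, and 18.4, 39.7 and 18 in mdx. Its groups overlapped and mdx S5 alone was high in mdx; the log2 change was -0.04 (95% interval -0.77 to 0.70) against mdx_IL5Tg, 0.18 (-0.56 to 0.91) against IL5Tg and 0.21 (-0.52 to 0.95) between the transgenic groups. Mx1 and Mx2, genes of the dynamin-like GTPase family, were called against mdx_IL5Tg at 2.35 ± 0.72 and 1.35 ± 0.37, and Mx1 against IL5Tg at 2.70 ± 0.75. The annotation lists Mx2 as a polymorphic pseudogene, and whether these mice make its protein is not known. Mx1 was near the floor, at 0.512, 0.0325 and 0.112 CPM in IL5Tg, 0.217, 0.327 and 0.313 in mdx_IL5Tg, and 2.45, 0.937 and 0.965 in mdx. It reached the filter's level in all 3 mdx libraries but in only 1 library of each other group. Mx1 was therefore tested only through mdx, the group where it was high, so its calls are not independent of the filter. Ifi44 was at 2.97 ± 1.29 CPM (IL5Tg), 1.62 ± 0.434 (mdx_IL5Tg) and 3.78 ± 0.447 (mdx), and the chaperone gene Rtp4 at 4.34 ± 2.27 CPM (IL5Tg), 3.90 ± 1.83 (mdx_IL5Tg) and 9.88 ± 1.85 (mdx). Both were called higher in mdx than in mdx_IL5Tg (1.23 ± 0.35 and 1.34 ± 0.41) and not called against IL5Tg. The Mx1 call against mdx_IL5Tg ended without IL5Tg S9, or mdx_IL5Tg S1, S2 or S3, or mdx S4 or S6 (adjusted p up to 0.191), and that against IL5Tg without IL5Tg S8 or S9, or mdx S4 (up to 0.112). The Mx2 call ended without mdx_IL5Tg S1 or S3, or mdx S4, S5 or S6 (adjusted p up to 0.103). That of Ifi44 ended without mdx_IL5Tg S1 or S3, or mdx S4 or S6 (adjusted p up to 0.143), and that of Rtp4 without IL5Tg S8 or S9, or mdx_IL5Tg S1 or S3, or mdx S4, S5 or S6 (up to 0.146).

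Of the effectors, Isg15, Isg20, Oasl2, Ifitm3, Eif2ak2, Zbp1, Cmpk2, Samd9l, Xaf1, Ifi27 and Ifi35 passed in none of the 3 comparisons. Cmpk2, the neighbour of Rsad2 on chromosome 12, lay just outside the threshold in mdx against mdx_IL5Tg (1.305 ± 0.43, edgeR adjusted p = 0.0506). Ifitm3, which blocks viral entry at membranes, was at 39.7 ± 9.12 CPM (IL5Tg), 35.4 ± 12.2 (mdx_IL5Tg) and 59 ± 18.7 (mdx). Eif2ak2, the RNA-activated kinase PKR, was at 16.9 ± 5.49 CPM (IL5Tg), 14.2 ± 1.31 (mdx_IL5Tg) and 17.9 ± 5.79 (mdx). Samd9l had its highest mean in IL5Tg, at 283 ± 15.5 CPM (IL5Tg), 201 ± 43.4 (mdx_IL5Tg) and 179 ± 60.8 (mdx). Xaf1 was likewise highest there, at 7.47 ± 2.03 CPM (IL5Tg), 4.72 ± 1.66 (mdx_IL5Tg) and 4.95 ± 1.46 (mdx). Against mdx_IL5Tg the log2 changes of these 11 in mdx ranged from -0.17 (Samd9l) to 1.305 (Cmpk2).

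The enzymes that attach or remove ISG15, ubiquitin and ADP-ribose gave 4 calls higher and 1 lower in mdx against mdx_IL5Tg. The 4 were 57.1% of the 7 enzymes. Over all genes 11.5% were called higher and 10.1% lower. Herc6, the chief ISG15 ligase of the mouse, was at 7.23, 5.35 and 6.04 CPM in IL5Tg, 2.77, 3.93 and 2.35 in mdx_IL5Tg, and 7.52, 9.24 and 7.64 in mdx. The 3 mdx_IL5Tg libraries were below all 6 others. The log2 change was 1.43 ± 0.25, edgeR adjusted p = 0.00328 for mdx over mdx_IL5Tg and -1.04 ± 0.25, edgeR adjusted p = 0.0352 in mdx_IL5Tg against IL5Tg, and mdx was at 0.39 ± 0.24 against IL5Tg, not past the threshold. Trim25, a ubiquitin ligase that acts on RIG-I, had the reverse pattern at 460.4, 533 and 613 CPM in IL5Tg, 805, 677 and 849.6 in mdx_IL5Tg, and 415, 442 and 470.3 in mdx. It was highest in mdx_IL5Tg, lower in mdx (-0.81 ± 0.15, edgeR adjusted p = 0.00431), and at 0.54 ± 0.15, edgeR adjusted p = 0.0512 in mdx_IL5Tg against IL5Tg, where it missed the threshold without overlap of the groups. Trim30a, a tripartite motif protein encoded on chromosome 7, was at 27.4, 22.7 and 21.7 CPM in IL5Tg, 17, 18.1 and 19.6 in mdx_IL5Tg, and 42.4, 33.8 and 40.00 in mdx. The groups did not overlap in any pairing, and mdx was called higher than mdx_IL5Tg (1.09 ± 0.15, edgeR adjusted p = 0.00105) and than IL5Tg (0.69 ± 0.15, edgeR adjusted p = 0.00955). The latter call was lost without IL5Tg S9 (edgeR adjusted p = 0.0559). Usp18, which removes ISG15 and dampens the type I receptor, was at 4.51, 2.89 and 3.02 CPM in IL5Tg, 5.10, 4.003 and 2.43 in mdx_IL5Tg, and 8.31, 11 and 5.98 in mdx. The highest library was mdx S5. The log2 change was 1.13 ± 0.33, edgeR adjusted p = 0.0329 against mdx_IL5Tg and 1.28 ± 0.33, edgeR adjusted p = 0.0214 against IL5Tg. The first call ended without IL5Tg S8 or S9, or mdx_IL5Tg S1, S2 or S3, or mdx S4 or S5, and in a fit of only the groups compared or with IL5Tg S7 and mdx S5 both left out (adjusted p up to 0.119), and the second without IL5Tg S8 or S9, or mdx S4 or S5 (up to 0.0912). Parp14, an ADP-ribosyltransferase, was at 103, 80.1 and 74.9 CPM in IL5Tg, 58.3, 72.7 and 51.5 in mdx_IL5Tg, and 119, 87.8 and 115 in mdx. It was called in mdx against mdx_IL5Tg (0.82 ± 0.18, edgeR adjusted p = 0.0107), a call lost without mdx_IL5Tg S1 or S3, or mdx S4 or S6 (adjusted p up to 0.0709), and not against IL5Tg (0.32 ± 0.18). Parp9 and its partner Dtx3l, neighbours on chromosome 16, passed in no comparison and were at 0.24 ± 0.22 and 0.56 ± 0.21 in mdx against mdx_IL5Tg.

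The interferon-inducible GTPases attack vacuoles that hold pathogens. Of the 7, Gbp2, Gbp3, Gbp5 and Igtp were called higher in mdx than in mdx_IL5Tg (median of the 7 0.98) and only Gbp3 higher than in IL5Tg (median 0.32). The shares were 57.1% and 14.3%, beside 11.5% and 11.8% of all genes, so the second was near that of all genes. Gbp3 was at 9.25, 6.78 and 4.995 CPM in IL5Tg, 5.49, 9.89 and 3.81 in mdx_IL5Tg, and 18.8, 17.4 and 13.9 in mdx. All 3 mdx libraries exceeded the other 6, with mdx_IL5Tg S2 next. Its log2 change was 1.38 ± 0.34, edgeR adjusted p = 0.0169 against mdx_IL5Tg and 1.25 ± 0.34, edgeR adjusted p = 0.0258 against IL5Tg. The first call ended without mdx_IL5Tg S1 or S3, or mdx S4 and the second without IL5Tg S8 or S9, or mdx S4 or S5 (adjusted p up to 0.0932 and 0.108). Gbp2 (1.16 ± 0.34), Gbp5 (1.20 ± 0.38) and Igtp (0.77 ± 0.24) had edgeR adjusted p = 0.0339, 0.0447 and 0.0412, and Gbp5 was called although mdx S5 lay below mdx_IL5Tg S2. All 3 calls ended without IL5Tg S7, S8 or S9, or mdx_IL5Tg S1 or S3, or mdx S4 or S6, and in a fit of only the groups compared, and that of Gbp2 also with no filter and with IL5Tg S7 and mdx S5 both left out (adjusted p up to 0.152, 0.187 and 0.203). Gbp7, Ifi47 and Irgm1 were at 0.82 ± 0.28, 0.98 ± 0.33 and 0.67 ± 0.30 and did not pass. In IL5Tg, S7 had the highest level of all 7, for example 28 CPM of Gbp7 beside 17.2 and 15.1 in S8 and S9. Members of the Gbp family are similar in sequence, so reads may have been shared among them.

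Among the class I genes, Tap1 was the 1 of 7 called in mdx against mdx_IL5Tg. This share of 14.3% was near the 11.5% of all genes called higher. The median log2 change of the 7 was -0.08, or 0.22 with library totals, a turn of sign. H2-K1 (chr17:33996017-34000347), a classical heavy chain, was at 455, 439.7 and 560.4 CPM in IL5Tg, 918, 848 and 727 in mdx_IL5Tg, and 1035, 1457 and 968 in mdx. The groups were ordered IL5Tg, mdx_IL5Tg, mdx with no overlap. The log2 change was 0.78 ± 0.18, edgeR adjusted p = 0.0351 in mdx_IL5Tg against IL5Tg, 1.25 ± 0.18, edgeR adjusted p = 0.00125 in mdx against IL5Tg and 0.47 ± 0.18, edgeR adjusted p = 0.0864 in mdx against mdx_IL5Tg, the last not past the threshold. H2-D1 (chr17:35262730-35267499), another classical heavy chain, was at 1343, 1407 and 1659 CPM in IL5Tg, 2323, 2086 and 1981 in mdx_IL5Tg, and 2079, 2484 and 2039 in mdx. Both mdx-bearing groups were above IL5Tg in every library. In H2-D1 mdx passed against IL5Tg (0.58 ± 0.15, edgeR adjusted p = 0.0187) and mdx_IL5Tg narrowly did not (0.54 ± 0.15, edgeR adjusted p = 0.0510). The call was lost without IL5Tg S7 or S8, or mdx_IL5Tg S2, or mdx S4, and with IL5Tg S7 and mdx S5 both left out (adjusted p up to 0.0939). Between mdx and mdx_IL5Tg the change was 0.05 (95% interval -0.27 to 0.37). B2m, the light chain shared by all class I molecules, was at 666, 558 and 575 CPM in IL5Tg, 792, 787 and 717 in mdx_IL5Tg, and 659, 311 and 625 in mdx. It was lowest in mdx S5, the library where H2-K1 was highest, and passed in no comparison. Its log2 change was 0.35 ± 0.24, edgeR adjusted p = 0.360 for mdx_IL5Tg against IL5Tg, -0.53 ± 0.24, edgeR adjusted p = 0.134 for mdx against mdx_IL5Tg and -0.17 ± 0.24, edgeR adjusted p = 0.628 for mdx against IL5Tg. Tap1, a subunit of the peptide transporter, was at 29.9 ± 7.66 CPM (IL5Tg), 28.4 ± 6.21 (mdx_IL5Tg) and 50.1 ± 5.55 (mdx). It was called higher in mdx against mdx_IL5Tg (0.82 ± 0.21, edgeR adjusted p = 0.0216) and IL5Tg (0.74 ± 0.21, edgeR adjusted p = 0.0312). The first call ended without IL5Tg S9, or mdx_IL5Tg S1 or S3, or mdx S4 or S6 (adjusted p up to 0.105), and the second without IL5Tg S8 or S9, or mdx_IL5Tg S1, or mdx S4, S5 or S6 (up to 0.141). Tap2, its partner subunit, and the immunoproteasome subunits Psmb8 and Psmb9 passed in none; against mdx_IL5Tg they were at -0.32 ± 0.27, -0.08 ± 0.28 and -0.33 ± 0.29, and mdx S5 was highest of its group for all 3. H2-K1, H2-D1 and the H2-Q genes are near-identical in places, and RSEM divides such reads by estimation.

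**Figure D4:**
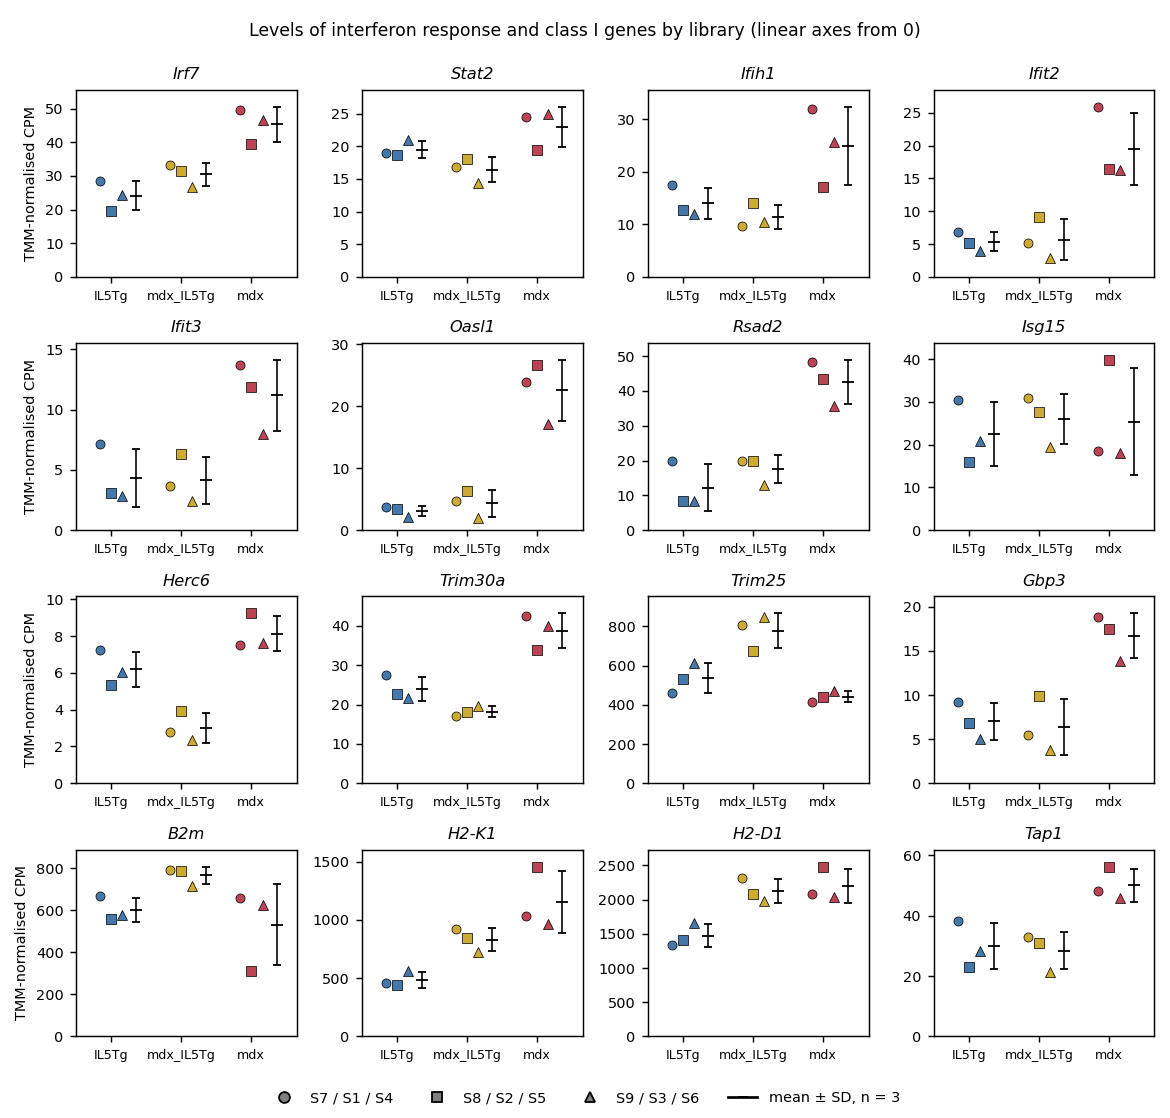
CPM by library on linear axes from 0 for 16 of the genes; points are libraries, and the black marks with error bars are the mean ± SD (n = 3). Oasl1 stands at 17.1 to 26.6 in mdx and at 1.91 to 6.24 in the 6 transgenic libraries, Trim25 is highest in mdx_IL5Tg, Isg15 overlaps throughout, and B2m in mdx S5 is at 311.

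Genes upstream and alongside the set were read from 5 further lists, of which 103 of 115 genes were tested. Of these, 28 were called higher and 9 lower in mdx against mdx_IL5Tg (median log2 change 0.31), 31 and 5 in mdx against IL5Tg (0.35), and 8 and 2 in mdx_IL5Tg against IL5Tg (0.12). The shares called higher were 27.2%, 30.1% and 7.77% in that order, beside 11.5%, 11.8% and 4.35% of all genes tested. Over all genes 10.1%, 8.96% and 2.87% were called lower. The same shares of all genes apply to each list below. The 28 became 10 without the library mdx_IL5Tg S1 (2.63% of all genes), 12 without S3 of that group (5.8%), 12 without mdx S4 (3.73%) and 14 without mdx S6 (5.61%). The 31 became 17 without IL5Tg S9 (5.71% of all genes) or mdx S4 (7.15%) and 19 without IL5Tg S8 (5.89%). The 9 called lower became 5 without mdx_IL5Tg S1 (6.7%). The 8 ranged from 2 (without mdx_IL5Tg S1, 0.662% of all genes) to 16 (without mdx S5, 9.4%). The 2 called lower ranged from 0 (without IL5Tg S7 or S8, or mdx_IL5Tg S1 or S3) to 9 (without mdx S5). The share of all genes called lower there ranged from 0.0123% to 6.55%. Interferon transcripts themselves had few counts. Ifnb1 had 4 counts in IL5Tg S9, 3 in mdx S4, 6 in mdx S6 and 0 elsewhere. Ifng had 21 in mdx_IL5Tg S2, 5 and 1 in IL5Tg S7 and S9 and 0 elsewhere. Ifna2, Ifna4, Ifna5, Ifnk, Ifnl2 and Ifnl3 had 0 counts in all 9 libraries, which by counting error alone allows up to 0.0514 to 0.112 CPM of a library's unscaled total (3 counts), and Ifne had 1 count in all.

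Among receptors and signalling genes, Ifngr1, the ligand-binding chain for interferon gamma, was at 259.7, 216 and 231 CPM in IL5Tg, 452, 371 and 496 in mdx_IL5Tg, and 189, 171 and 189.7 in mdx. The mdx_IL5Tg libraries were above all others. Ifngr1 was called higher in mdx_IL5Tg against IL5Tg (0.90 ± 0.14, edgeR adjusted p = 0.00922) and lower in mdx against mdx_IL5Tg (-1.26 ± 0.14, edgeR adjusted p = 0.000289), both in every alternative. It was at -0.36 ± 0.14 in mdx against IL5Tg. Ifnar2 rose in mdx_IL5Tg against IL5Tg (0.50 ± 0.11, edgeR adjusted p = 0.0286) and fell in mdx against mdx_IL5Tg (-0.38 ± 0.11, edgeR adjusted p = 0.0308). The higher call ended without IL5Tg S7 or S9, or mdx_IL5Tg S1 or S2, and with library totals (adjusted p up to 0.115). The lower one ended without mdx_IL5Tg S1, or mdx S4 or S6, and with library totals or with no filter; its adjusted p was 0.667 and its log2 change -0.06 with library totals, and the adjusted p was at most 0.0586 with 1 library left out. Ifnar1, the other type I receptor chain, was at 127, 142 and 121 CPM in IL5Tg, 166, 156 and 179 in mdx_IL5Tg, and 193, 157 and 189 in mdx. It passed in mdx against IL5Tg (0.47 ± 0.13, edgeR adjusted p = 0.0275) and was at 0.36 ± 0.13 in mdx_IL5Tg against IL5Tg and 0.10 ± 0.13 in mdx against mdx_IL5Tg. The call was lost without IL5Tg S7 or S9, or mdx_IL5Tg S1 or S2, or mdx S4 or S6, and in a fit of only the groups compared (adjusted p up to 0.134). Also called were Irf5 in both IL5Tg comparisons (0.67 ± 0.14 in mdx_IL5Tg, 0.57 ± 0.14 in mdx), Il10rb in mdx_IL5Tg against IL5Tg (0.65 ± 0.15), Irf8 in mdx against IL5Tg (1.37 ± 0.42), and, in mdx against mdx_IL5Tg, Stat3 (-0.59 ± 0.18) and Ptpn6 (0.43 ± 0.14). In all, 4 of 19 tested receptor and signalling genes were called higher in mdx_IL5Tg against IL5Tg, 1 was called higher and 3 lower in mdx against mdx_IL5Tg, and 4 were called higher in mdx against IL5Tg. The shares called higher were 21.1%, 5.26% and 21.1% in that order, beside 4.35%, 11.5% and 11.8% of all genes. The call of Ptpn6 held in 5 of 19 alternatives and ended without any 1 library (adjusted p up to 0.318). That of Il10rb ended without IL5Tg S7 or S9, or mdx_IL5Tg S1 or S2, and with library totals (adjusted p up to 0.0981), and that of Irf8 without IL5Tg S8 or S9, or mdx_IL5Tg S1, or mdx S4 or S6 (up to 0.143). That of Stat3 ended without mdx_IL5Tg S1 or S2, or mdx S4, S5 or S6, and with library totals; its adjusted p was 0.232 and its log2 change -0.27 with library totals, and the adjusted p was at most 0.0908 with 1 library left out. Those of Irf5 ended without IL5Tg S7, or mdx_IL5Tg S1 or S2, and with library totals in mdx_IL5Tg (adjusted p up to 0.114) and without IL5Tg S7, or mdx S4 or S6 in mdx (up to 0.0681).

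Of 16 nucleic acid sensing genes, 5 were called higher and 1 lower in mdx against mdx_IL5Tg, 7 higher when mdx was set against IL5Tg, and 2 higher in mdx_IL5Tg against IL5Tg. Shares called higher were 31.25%, 43.75% and 12.5% in that order, beside 11.5%, 11.8% and 4.35% of all genes. Tlr9, the endosomal DNA sensor, was at 2.85, 3.96 and 1.94 CPM in IL5Tg, 5.47, 5.21 and 4.26 in mdx_IL5Tg, and 18.1, 10.3 and 14 in mdx. Levels in mdx were called above both groups (1.51 ± 0.29, edgeR adjusted p = 0.00556 against mdx_IL5Tg and 2.28 ± 0.30, edgeR adjusted p = 0.000647 against IL5Tg). The kinase gene Ikbke (1.97 ± 0.39) and Mb21d1, which encodes cGAS (0.77 ± 0.20), were higher in mdx than in mdx_IL5Tg, the latter call ending without IL5Tg S9, or mdx_IL5Tg S1, S2 or S3, or mdx S4 or S6 (adjusted p up to 0.112). Samhd1, a nucleotide hydrolase, was lower (-0.63 ± 0.14; call lost with library totals). Against IL5Tg, Unc93b1, the chaperone of endosomal Toll-like receptors, was higher in mdx_IL5Tg (1.04 ± 0.15) and mdx (1.19 ± 0.15), as was Traf3 (0.69 ± 0.12, lost without mdx_IL5Tg S1 with adjusted p up to 0.0933, and 1.02 ± 0.13). Tlr8, an RNA sensor of endosomes, had 5, 0 and 4 counts in IL5Tg, 23, 54 and 17 in mdx_IL5Tg and 313, 41 and 125 in mdx. Of 49 other interferon-induced genes, 17 were called higher and 5 lower in mdx against mdx_IL5Tg, 14 and 5 when mdx was set against IL5Tg, and 1 and 2 in mdx_IL5Tg against IL5Tg. For these the shares called higher were 34.7%, 28.6% and 2.04%, beside the same shares of all genes. Rnf213 (0.99 ± 0.17) and Ms4a4c (3.31 ± 0.57), the latter also a marker of monocytes, were higher in mdx than in mdx_IL5Tg, and Oas1g was at 0.820 to 1.004 CPM in mdx with 2 counts in each mdx_IL5Tg library. Those 2 counts are under the filter's minimum of 10, so Oas1g was tested only through mdx, the group where it was high. Ifitm1 was lower in mdx than in mdx_IL5Tg (-1.31 ± 0.18), and Gvin1 (-1.95 ± 0.31) lower and Slfn8 (2.89 ± 0.58; call lost with no filter) higher in mdx than in IL5Tg. In mdx_IL5Tg against IL5Tg, Parp10 was higher (0.86 ± 0.18) and the GTPase genes Tgtp2 (-1.26 ± 0.31) and Gbp4 (-1.23 ± 0.30) were lower. The call of Parp10 ended without IL5Tg S7, S8 or S9, or mdx_IL5Tg S1 or S2 (edgeR adjusted p up to 0.129), and that of Gbp4 without IL5Tg S7, S8 or S9, or mdx_IL5Tg S1, S2 or S3 (up to 0.173). That of Tgtp2 ended without IL5Tg S7 or S8, or mdx_IL5Tg S1, S2 or S3, or mdx S4 or S6, and with IL5Tg S7 and mdx S5 both left out (edgeR adjusted p up to 0.184).

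Other class I genes gave 5 calls higher of 19 in mdx against mdx_IL5Tg, 6 when mdx was set against IL5Tg and 1 in mdx_IL5Tg against IL5Tg. These were shares of 26.3%, 31.6% and 5.26%, beside 11.5%, 11.8% and 4.35% of all genes. Nlrc5, the transactivator of class I promoters, was at 12.4, 9.35 and 7.75 CPM in IL5Tg, 6.99, 5.94 and 6.34 in mdx_IL5Tg, and 15.6, 12.5 and 16.4 in mdx. It was higher in mdx than in mdx_IL5Tg (1.21 ± 0.21, edgeR adjusted p = 0.00381) in every alternative, and at 0.59 ± 0.21 against IL5Tg and -0.61 ± 0.21 in mdx_IL5Tg against IL5Tg, neither past the threshold. The nonclassical gene H2-Q7 was at 7.49, 2.76 and 4.85 CPM in IL5Tg, 4.76, 3.88 and 3.08 in mdx_IL5Tg, and 14.8, 22.6 and 23.8 in mdx. H2-Q7 (2.38 ± 0.35), H2-Q4 (1.25 ± 0.20) and H2-Q6 (2.17 ± 0.41) were higher in mdx than in mdx_IL5Tg, and likewise than in IL5Tg (2.02 ± 0.34, 1.76 ± 0.20 and 2.14 ± 0.41), each in all alternatives. Tapbpl, which edits class I peptides, was higher in mdx than in IL5Tg (1.26 ± 0.22), and Tapbp, which encodes tapasin, in mdx_IL5Tg than in IL5Tg (0.79 ± 0.21). Tapbpl was also called higher in mdx than in mdx_IL5Tg (0.82, edgeR adjusted p = 0.0238), which held in 13 of 19 alternatives. Tapbp was also called higher in mdx than in IL5Tg (0.70, edgeR adjusted p = 0.0393), which held in 9 of 19. The Tapbp call in mdx_IL5Tg against IL5Tg was lost in 9 of 19 alternatives (edgeR adjusted p up to 0.193). It ended without IL5Tg S7, S8 or S9, or mdx_IL5Tg S1 or S2, or mdx S6. It also ended with RLE factors, with library totals or with the stricter filter. The H2-Q genes are near-identical copies, so the division of reads among them is uncertain.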

How the data were processed

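Bulk RNA-seq of sorted muscle eosinophils from 9 mouse samples was analysed. The values are RSEM expected counts per gene, as deposited by the authors. Per the submitters' processing notes, RSEM 1.3.0, STAR 2.5.3, cutadapt 2.10 and limma were used with mm10. Settings, annotation and strand use were not given in the sources used here. Estimated counts (6.03% not whole) were rounded, which moves no count by more than a fraction of a read.

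Columns name the group and an S number, and groups were taken from the titles. All 9 libraries entered 1 edgeR 4.0.16 quasi-likelihood fit (R 4.3.3, robust, TMM, filterByExpr with a minimum count of 10), which left 15886 of 54146 genes. The 3 group contrasts were tested with Benjamini-Hochberg adjustment at 0.05 over all genes tested. The standard error is the size of the log2 change over the square root of F. Exon lengths and positions came from GENCODE M21 (54079 IDs matched) and promoters from RefSeq.

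The members and lists were chosen with earlier results of these data known. Every member past the threshold was named, up to 10 of those past it with the smallest p in each comparison were given by library, as were B2m, H2-K1, H2-D1, Isg15, Irf7, Stat2 and Ifit3, and up to 4 genes of each further list were named by smallest p. A gene of these lists is not reported here. Alternatives were DESeq2 1.42.0, limma 3.58.1 voom without and with quality weights, RLE factors, library totals, no filter, a filter of 50 counts in 3 libraries, a table without genes of the mitochondrion, haemoglobin or small RNAs, separate fits for each pair of groups, every library omitted in turn, and IL5Tg S7 with mdx S5 omitted. Total counts of 26752780 to 58368283 set the depth, and the number of libraries limits the precision.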

Additional observations from a re-analysis of the deposited data

How the results depend on the processing

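Over 19 alternatives, results for single genes gave 4183 values on the same side of the threshold with their direction kept, 239 that newly passed, 302 that no longer passed and none that reversed past the threshold. Of the counts of called genes, 147 lay within 1.5 times and 81 did not; the cause was not tested, beyond the smaller number of libraries or genes in some fits. For the 52 genes in mdx_IL5Tg against IL5Tg, 1 was called higher, and 3 with DESeq2, voom, no filter or only the groups compared, 9 with voom and quality weights, 0 with library totals and 7 with IL5Tg S7 and mdx S5 left out. The 1 called lower became 2 with quality weights or no filter and 0 with both of those libraries left out. With single libraries left out the calls ranged from 0 to 4 higher and 0 to 1 lower. For mdx against mdx_IL5Tg, 24 higher became 38 with library totals and ranged from 3 to 23 with single libraries left out. The 1 lower became 5 with quality weights and 2 with both libraries left out, and ranged from 1 to 2. For mdx against IL5Tg, 16 higher became 29 with quality weights and 25 with both libraries left out, and ranged from 6 to 21. The 0 lower became 1 with DESeq2 or quality weights and ranged from 0 to 1. The share of all genes called higher moved as well. With single libraries left out it ranged from 0.662% to 9.4% in mdx_IL5Tg against IL5Tg. The range was 2.63% to 12.3% in mdx against mdx_IL5Tg and 5.71% to 11.7% in mdx against IL5Tg. In the same order it was 13.2%, 25.1% and 19.1% with quality weights, and 1.96%, 25.2% and 15.2% with library totals.

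For the other pathway genes in mdx_IL5Tg against IL5Tg, 8 higher became 26 with quality weights, 4 with library totals, 13 with no filter and 15 with both libraries left out, and ranged from 2 to 16. The 2 lower became 8 with DESeq2 or only the groups compared, 4 with voom, no filter or without mitochondrial, haemoglobin and small RNA genes, 11 with quality weights and 6 with library totals or the stricter filter, and ranged from 0 to 9. For mdx against mdx_IL5Tg, 28 higher became 44 with quality weights and 45 with library totals, and ranged from 10 to 32. The 9 lower became 17, 4 and, with both libraries left out, 14, and ranged from 5 to 13. For mdx against IL5Tg, 31 higher ranged from 17 to 31 with single libraries left out. The 5 lower became 8 with DESeq2 and 11 with quality weights, and ranged from 4 to 5. Mx1 was not tested under the stricter filter.

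No paired analysis was possible because the count columns carry only a group and an S number and cannot be tied to the replicate numbers in the labels. Low levels such as those of Mx1, Oas1g, Tlr8 in IL5Tg and the interferon transcripts rest on few counts.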
